A study of Homo sapiens with 24 samples.

Results

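The interaction of genotype and drug in HCC4006 cells was taken as the response to OT in YAP1 knockout cells minus the response to OT in control cells, gene by gene. It was computed on log2(FPKM + 1), where FPKM is a read level corrected for transcript length and library size, for all 13113 of 25365 gene rows that reached 1 FPKM in at least 3 of the 12 HCC4006 libraries. The other 12252 rows lay below that level and were not tested. A negative interaction means that OT left a gene lower, relative to DMSO, in YAP1 KO cells than it did in CTRL cells, and a positive interaction means the reverse.

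HCC4006 is an established lung adenocarcinoma line with an activating EGFR mutation. The 4 groups, each of 3 libraries, were YAP1 KO cells in OT, YAP1 KO cells in DMSO, CTRL cells in OT and CTRL cells in DMSO. OT is osimertinib, an EGFR inhibitor, at 100 nM together with trametinib, a MEK inhibitor, at 30 nM, and DMSO is the solvent; both were given for 24 hours. The 3 libraries of a group came from 3 dishes plated in parallel, so the p-values measure only the spread between dishes of the same cells. The guide, the control construct and whether the knockout cells are 1 clone or a pool are not given in the sources used here. The design asks whether loss of YAP1 alters what EGFR and MEK inhibition does to transcription.

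YAP1 is a transcriptional coactivator without a DNA-binding domain of its own. It binds TEAD factors at promoters and enhancers of genes for matrix, cytoskeleton, growth and survival. The Hippo kinases LATS1 and LATS2 phosphorylate YAP1 and its paralog TAZ (gene WWTR1) and hold them outside the nucleus. EGFR and MEK inhibition shuts down ERK output, arrests the cell cycle and raises BH3-only proteins such as BIM and BMF, and YAP activity is known as one route by which EGFR-mutant cells outlive such treatment.

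Library 1 of CTRL OT stood apart from the rest. Its FPKM summed to 507120, against 573180 and 574160 in the other CTRL OT libraries and 538130 to 561840 in YAP1 KO OT libraries. Its relative depth, read from the step that 1 read makes in low genes, was 1.49 times that of the first CTRL DMSO library, and the other 11 libraries lay between 0.992 and 1.26 times. Absolute depth is unknown. Most genes given library by library, the counts over all genes and most list counts are also given without it. Without it 109 of 110 named genes kept their side of the threshold, EGFR being the exception. The genes called kept their direction, and DUSP6, not called in either fit, changed sign. Sums of FPKM were 507120 to 574160 in OT libraries and 621940 to 660460 in DMSO libraries of both genotypes. Of 11 markers of lung epithelium, 8 reached 1 FPKM in at least 1 library, led by keratins, and the list summed to 3100 to 3151 FPKM in YAP1 KO OT, 4910 to 5194 in YAP1 KO DMSO, 4358 to 4726 in CTRL OT and 6062 to 6409 in CTRL DMSO libraries. The 10 fibroblast markers summed to at most 22.1 FPKM in any library, with 7 of them under 1 FPKM throughout, and of 10 immune and endothelial markers 6 were under 1 FPKM throughout. In bulk RNA, fewer cells of a state and less RNA per cell cannot be told apart.

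YAP1, the targeted gene, had 5.97, 6.34 and 6.07 FPKM in YAP1 KO OT and 4.23, 4.59 and 3.9 FPKM in YAP1 KO DMSO libraries, against 16.9, 13.9 and 15.6 FPKM in CTRL OT and 18.5, 16.5 and 19.7 FPKM in CTRL DMSO libraries. Every knockout library lay below every control library, and transcript remained in all of them. The knockout difference was -1.2 on the log2 scale under OT and -1.88 under DMSO, so the interaction of YAP1 itself was 0.67 (SE 0.11, adjusted p = 0.0015, and 0.73 without CTRL OT library 1) in limma. OT thus left YAP1 higher in knockout cells, at 0.45 relative to DMSO, and lower in control cells, at -0.23. The files do not show which part of the transcript is altered, so the remaining FPKM is no measure of YAP1 protein.

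Across all genes the response to OT was large in both genotypes. In YAP1 KO cells OT raised 6081 genes (46.4% of those tested) and lowered 4781 (36.5%), and in CTRL cells it raised 5896 (45%) and lowered 4804 (36.6%), at an adjusted p under 0.05. The median OT response of all genes was 0.11 in YAP1 KO and 0.087 in CTRL cells, and 0.28 in both after scaling to the same sum of FPKM. The 2 responses, which share no library, correlated across genes at r = 0.927; genes are not independent replicates and no test was made of this value. The interaction was called for 1371 genes in the higher direction (10.5%) and for 1073 in the lower direction (8.18%), with a median of 0.036 over all genes tested. Without CTRL OT library 1 these counts were 1610 and 1412. Another scaling, by median-of-ratios, turned the balance to 1029 higher and 1222 lower, so the direction of the balance depends on the scaling. Differences of at least 2-fold were fewer and lay mostly on the lower side, with 51 genes higher (0.389%) and 97 lower (0.74%), and 52 and 97 without CTRL OT library 1.

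**Figure D1:**
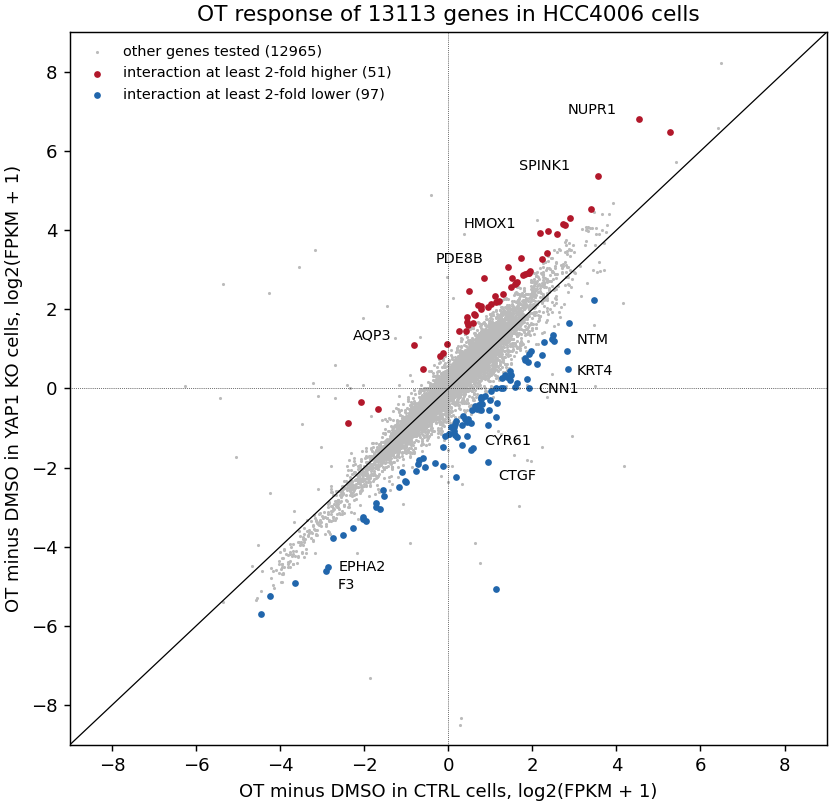
Response to OT (OT minus DMSO, log2(FPKM + 1)) in YAP1 KO cells on the vertical axis and in CTRL cells on the horizontal axis for 13113 genes, with the line of equal response. Points are genes, with 97 in blue for an interaction at least 2-fold lower and 51 in red for one at least 2-fold higher; CTGF and CYR61 lie right of 0 and below 0, and NUPR1 lies high above the line.

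The strongest interactions took different shapes in the 2 directions. Of the 97 genes at least 2-fold lower, 26 fell with OT in YAP1 KO cells and rose in CTRL cells, 12 fell in YAP1 KO cells with no call in CTRL cells, and 12 rose in CTRL cells with no call in YAP1 KO cells. A further 27 (27.8%) fell in both genotypes and fell further in YAP1 KO cells, and 20 (20.6%) rose in both and rose less in YAP1 KO cells. Over all 13113 genes, 33% fell in both genotypes, 41.4% rose in both, and 71 genes (0.541%) fell in YAP1 KO cells and rose in CTRL cells. Of the 51 genes at least 2-fold higher, 43 (84.3%) rose with OT in both genotypes and rose more in YAP1 KO cells, and 3 rose in YAP1 KO cells and fell in CTRL cells. Which genotype had the lower response follows from choosing genes by the interaction. The knockout difference was larger in size under OT than under DMSO for 93 of the 97 lower genes and for 42 of the 51 higher ones. The interaction that chose these genes is the difference between those 2 knockout differences, and the share of all genes was not computed. Nothing is therefore read from the 93 and the 42. Low levels sit behind part of the 2-fold counts. Of the 97, 17 averaged under 1 FPKM in YAP1 KO OT libraries, and 20 of the 51 did so in YAP1 KO DMSO libraries.

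Direct targets of YAP with TEAD had the lowest median interaction of the 26 gene lists. CTGF, a secreted matricellular protein and the standard readout of YAP, had 3.11, 3.62 and 3.65 FPKM in YAP1 KO OT and 15.6, 15.1 and 15 FPKM in YAP1 KO DMSO libraries, against 43, 48.3 and 50.6 FPKM in CTRL OT and 24.3, 23.5 and 24.7 FPKM in CTRL DMSO libraries. OT therefore took CTGF below its DMSO level in knockout cells and above it in control cells, and the 4 groups did not overlap. The OT response was -1.87 in YAP1 KO cells and 0.94 in CTRL cells on the log2 scale, an interaction of -2.8 (SE 0.091, adjusted p = 9.7e-09, and -2.87 without CTRL OT library 1). CYR61, a close relative of CTGF, had 23, 23.4 and 23.9 FPKM in YAP1 KO OT and 69.3, 67.4 and 69.8 FPKM in YAP1 KO DMSO libraries, against 159, 178 and 171 FPKM in CTRL OT and 113, 114 and 109 FPKM in CTRL DMSO libraries. Its pattern was the same, with no overlap between groups, a response of -1.51 in YAP1 KO cells and 0.59 in CTRL cells, and an interaction of -2.1 (SE 0.063, adjusted p = 7.3e-09, and -2.15 without CTRL OT library 1). Their knockout differences were -3.44 for CTGF and -2.8 for CYR61 under OT, and -0.63 and -0.70 under DMSO.

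The TEAD motif GGAATG was in 7 of the 16 windows, from 250 bases before to 50 after the start, that matched the 22 genes of the YAP/TEAD list. Windows that hold it were chosen for print to show how the motif lies there, and the window of AXL is printed as one that holds none; the windows before the start of F3, AMOTL2, IGFBP3 and FJX1 also hold none. THBS1 and CPA4 are not on that list. Each printed window is the 250 bases before the transcription start from RefSeq on GRCh38.p14, 5′ to 3′ on the strand of the gene, with each motif, read on either strand as GGAATG or CATTCC, in capitals. CTGF (chr6:131951373-131951622, minus strand) holds 3 copies that begin at positions -169, -104 and -95 from the start, and ANKRD1 (chr10:90921088-90921337, minus strand) holds 2, at -220 and -128. TGFB2 (chr1:218345086-218345335, plus strand), THBS1 (chr15:39580829-39581078, plus strand) and CPA4 (chr7:130292911-130293160, plus strand) hold 1 each, at -185, -46 and -134. AXL is shown from chr19:41218973-41219222, plus strand.
CTGF: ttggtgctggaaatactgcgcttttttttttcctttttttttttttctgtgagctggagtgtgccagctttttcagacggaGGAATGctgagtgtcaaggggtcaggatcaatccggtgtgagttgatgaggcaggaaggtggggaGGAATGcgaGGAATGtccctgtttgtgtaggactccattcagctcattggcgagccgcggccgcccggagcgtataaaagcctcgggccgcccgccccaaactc
ANKRD1: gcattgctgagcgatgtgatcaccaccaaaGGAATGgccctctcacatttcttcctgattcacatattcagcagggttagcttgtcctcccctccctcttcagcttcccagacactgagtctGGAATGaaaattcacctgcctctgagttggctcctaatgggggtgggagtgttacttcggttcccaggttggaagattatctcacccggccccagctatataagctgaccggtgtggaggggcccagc
TGFB2: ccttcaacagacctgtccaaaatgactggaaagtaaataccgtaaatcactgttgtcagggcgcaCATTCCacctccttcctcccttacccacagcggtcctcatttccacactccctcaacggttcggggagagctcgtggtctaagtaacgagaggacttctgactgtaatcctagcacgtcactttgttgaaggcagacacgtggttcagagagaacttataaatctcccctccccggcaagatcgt
THBS1: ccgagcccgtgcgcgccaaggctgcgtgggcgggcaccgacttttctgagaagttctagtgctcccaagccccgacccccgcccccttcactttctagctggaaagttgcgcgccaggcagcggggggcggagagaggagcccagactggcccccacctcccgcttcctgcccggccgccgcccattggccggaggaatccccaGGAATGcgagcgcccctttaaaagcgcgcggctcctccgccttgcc
CPA4: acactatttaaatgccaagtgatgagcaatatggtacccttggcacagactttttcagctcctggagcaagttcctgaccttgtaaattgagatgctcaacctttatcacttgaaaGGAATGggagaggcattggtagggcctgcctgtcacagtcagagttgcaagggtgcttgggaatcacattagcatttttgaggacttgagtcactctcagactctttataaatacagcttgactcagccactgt
AXL: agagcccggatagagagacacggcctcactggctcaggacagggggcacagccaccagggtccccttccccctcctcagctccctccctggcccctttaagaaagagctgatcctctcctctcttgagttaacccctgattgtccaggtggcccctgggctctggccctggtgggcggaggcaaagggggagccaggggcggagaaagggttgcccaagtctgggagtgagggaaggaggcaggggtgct

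Among all genes at least 2-fold lower, 73 of 97 had a window of 250 bases before to 50 after the start, and 18 of these (24.7%) held the TEAD motif on either strand. The share was 4 of 38 (10.5%) for genes at least 2-fold higher, 1095 of 10318 (10.6%) for all genes tested that matched, and 14% for all 27305 windows of the RefSeq table. The AP-1 motif TGANTCA was in 7 of 73 (9.59%) of the lower genes and 5 of 38 (13.2%) of the higher ones, against 4.6% of all genes tested and 7.76% of all windows. Neither motif is contained in the other. A match describes these letters in this window and is not a binding site.

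ANKRD1, a muscle-type ankyrin repeat protein and YAP target, had 8.28, 7.17 and 7.88 FPKM in YAP1 KO OT and 4.8, 4.72 and 4.69 FPKM in YAP1 KO DMSO libraries, against 34.9, 42.9 and 44.5 FPKM in CTRL OT and 13.9, 13.6 and 13.8 FPKM in CTRL DMSO libraries. OT left it higher in both genotypes, by 0.61 in YAP1 KO and 1.49 in CTRL cells, and the interaction was -0.88 (SE 0.11, adjusted p = 2.0e-04, and -0.99 without CTRL OT library 1). TGFB2, the ligand TGF-beta 2, had 16.1, 15.7 and 15.7 FPKM in YAP1 KO OT and 16.1, 15.8 and 14.6 FPKM in YAP1 KO DMSO libraries, against 51.1, 50.3 and 49.9 FPKM in CTRL OT and 16.2, 14.8 and 17.3 FPKM in CTRL DMSO libraries. The CTRL OT libraries stood alone and the other 3 groups overlapped, with an OT response of 0.029 in YAP1 KO and 1.59 in CTRL cells and an interaction of -1.56 (SE 0.079, adjusted p = 1.9e-07, and -1.55 without CTRL OT library 1). AXL, a receptor kinase linked to tolerance of EGFR inhibitors, had 17.6, 16.7 and 17.2 FPKM in YAP1 KO OT and 40.2, 41.1 and 41 FPKM in YAP1 KO DMSO libraries, against 39.5, 38 and 36.4 FPKM in CTRL OT and 40.6, 39.2 and 41.1 FPKM in CTRL DMSO libraries. Here it was the YAP1 KO OT libraries that stood alone below the other 3 groups, with an interaction of -1.12 (SE 0.058, adjusted p = 2.6e-07, and -1.09 without CTRL OT library 1).

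F3, which encodes tissue factor, had 4.37, 2.87 and 3.45 FPKM in YAP1 KO OT and 111, 110.4 and 107 FPKM in YAP1 KO DMSO libraries, against 18.2, 14.9 and 17 FPKM in CTRL OT and 132, 127 and 134 FPKM in CTRL DMSO libraries. It fell with OT in both genotypes and further in knockout cells (-4.61 against -2.9), an interaction of -1.71 (SE 0.14, adjusted p = 9.8e-06, and -1.65 without CTRL OT library 1). AMOTL2, an angiomotin that restrains YAP and is itself induced by YAP, had 12.2, 13.3 and 12.8 FPKM in YAP1 KO OT and 7.14, 7.15 and 7.02 FPKM in YAP1 KO DMSO libraries, against 43.7, 36.6 and 36.2 FPKM in CTRL OT and 10.4, 9.75 and 10.4 FPKM in CTRL DMSO libraries. It rose with OT in both genotypes and less in knockout cells, with an interaction of -1.07 (SE 0.094, adjusted p = 1.6e-05, and -0.98 without CTRL OT library 1). Of the 21 YAP/TEAD targets tested, 16 were called lower in the interaction, 8 of them at least 2-fold, and the list's median was -0.78, against 8.18% of genes called lower and a median of 0.036 over all genes tested. The highest value of any member was 0.021 for FOXF2, and FOXF2, CCDC80, LATS2, PTPN14 and ARHGEF17 were the members not called. RBMS3, the remaining member of 22, did not pass the level filter. The median OT response of the list was -0.41 in YAP1 KO and 0.76 in CTRL cells, and its median knockout difference was -1.04 under OT and -0.14 under DMSO. Without CTRL OT library 1, 16 members were called lower and the median was -0.65. The list was chosen with earlier results of these data known.

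**Figure D2:**
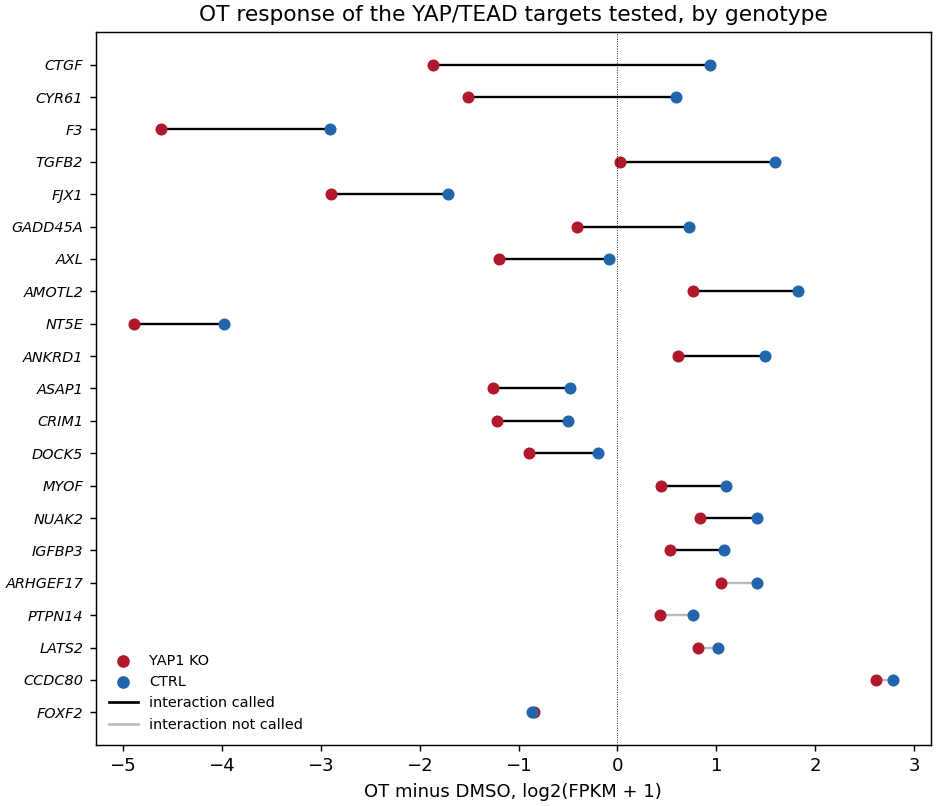
Response to OT (OT minus DMSO, log2(FPKM + 1)) of the 21 YAP/TEAD targets tested, in YAP1 KO cells (red) and CTRL cells (blue). Black lines join genes whose interaction was called and grey lines the 5 that were not; the red point lies left of the blue one for every gene but FOXF2.

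**Figure D3:**
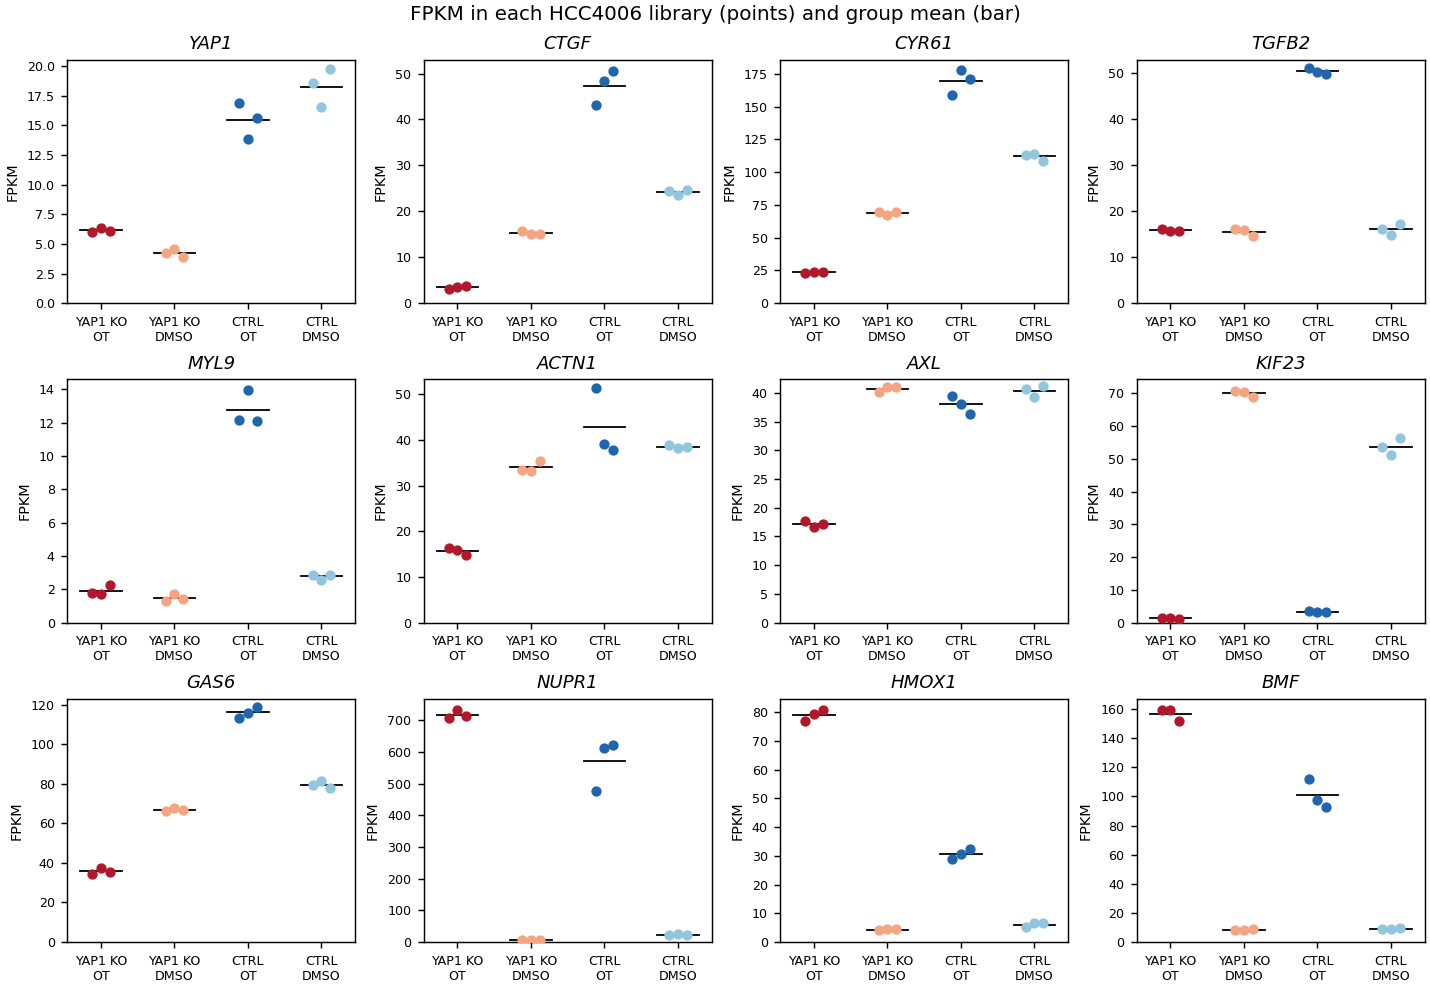
FPKM of 12 genes in each of the 12 HCC4006 libraries, with groups in the order YAP1 KO OT, YAP1 KO DMSO, CTRL OT and CTRL DMSO; points are libraries, bars are group means and each vertical axis starts at 0. TGFB2 and MYL9 are high in CTRL OT alone, AXL is low in YAP1 KO OT alone, and NUPR1, HMOX1 and BMF are high in both OT groups and highest in YAP1 KO OT.

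Components of the Hippo pathway had a median interaction nearer to 0 than the targets. WWTR1, which encodes the YAP paralog TAZ, had 9.67, 9.2 and 9.47 FPKM in YAP1 KO OT and 35.3, 35.9 and 33.4 FPKM in YAP1 KO DMSO libraries, against 10.0, 9.33 and 9.75 FPKM in CTRL OT and 29.6, 30.4 and 33.7 FPKM in CTRL DMSO libraries. OT lowered it in both genotypes, the ranges of the 2 OT groups overlapped, and its interaction of -0.19 (adjusted p = 0.11) was not called (95% interval of the difference -0.36 to -0.026). TEAD1, the DNA-binding partner, had an interaction of -0.42 (adjusted p = 0.052) and missed the threshold; the estimate was -0.30 without CTRL OT library 1. WWC1 (KIBRA), an upstream activator of the LATS kinases and a YAP target, was called lower with -1.07 (adjusted p = 8.5e-06); it had 7.19 to 7.93 FPKM in YAP1 KO OT, 14.7 to 15.2 in YAP1 KO DMSO, 18.7 to 22.2 in CTRL OT and 17.5 to 17.7 in CTRL DMSO libraries. Of 24 Hippo components tested, 6 were called lower and 1, YAP1, higher, against 8.18% lower and 10.5% higher over all genes. Their median was -0.20, and without CTRL OT library 1 the counts were 8 lower and 2 higher. AMOTL2, LATS2 and PTPN14 belong to this list and to that of the targets.

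Among 30 genes of the contractile cytoskeleton and focal adhesions, OT raised 13 and lowered 12 in YAP1 KO cells, and raised 19 and lowered 7 in CTRL cells. Over all genes it raised 46.4% and lowered 36.5% in YAP1 KO cells, shares near those of the list, and 45% and 36.6% in CTRL cells. MYL9, the regulatory light chain of smooth muscle myosin, had 1.76, 1.74 and 2.26 FPKM in YAP1 KO OT and 1.28, 1.7 and 1.39 FPKM in YAP1 KO DMSO libraries, against 12.2, 14 and 12.1 FPKM in CTRL OT and 2.88, 2.58 and 2.85 FPKM in CTRL DMSO libraries. The CTRL OT libraries lay far above all others, and the interaction was -1.62 (SE 0.13, adjusted p = 6.9e-06, and -1.65 without CTRL OT library 1). CNN1 (calponin 1, an actin-binding protein of smooth muscle) had 0.0789, 0.0416 and 0.121 FPKM in YAP1 KO OT and 0.0699, 0.0704 and 0.0737 FPKM in YAP1 KO DMSO libraries, against 3.69, 4.72 and 4.92 FPKM in CTRL OT and 0.44, 0.387 and 0.476 FPKM in CTRL DMSO libraries. It was at most 0.121 FPKM in any knockout library, and its interaction was -1.91 (SE 0.12, adjusted p = 9.7e-07, and -2.01 without CTRL OT library 1). Only the CTRL OT libraries reached the filter level of 1 FPKM, so CNN1 was tested because of the group where it is high. ACTN1, the cross-linker alpha-actinin 1, had 16.4, 15.9 and 14.8 FPKM in YAP1 KO OT and 33.5, 33.1 and 35.5 FPKM in YAP1 KO DMSO libraries, against 51.4, 39.1 and 37.9 FPKM in CTRL OT and 38.9, 38.2 and 38.5 FPKM in CTRL DMSO libraries. Knockout libraries fell to the lowest values under OT, CTRL OT library 1 was the highest, and the interaction was -1.2 (adjusted p = 6.3e-05), or -1.07 without that library.

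In the interaction 21 of these 30 genes were called lower and 1, LIMA1, higher, with a median of -0.47, against 8.18% lower and 10.5% higher over all genes. The median OT response of the list was 0.10 in YAP1 KO and 0.55 in CTRL cells. CAV1, the coat protein of caveolae, and TNS3, a tensin of adhesion sites, were the other members at least 2-fold lower, with -1.15 and -1.01; both were picked after their values were seen. Without CTRL OT library 1 the counts were 22 lower and 1 higher. Among 13 integrin subunits tested, 8 were called lower, against 8.18% of all genes, with a median of -0.39, and without CTRL OT library 1 there were 8 lower and 1 higher. ITGA5, which pairs with beta 1 to bind fibronectin, had 2.13 to 2.14 FPKM in YAP1 KO OT and 8.42 to 8.85 in YAP1 KO DMSO libraries, against 4.21 to 5.01 in CTRL OT and 8.56 to 8.91 in CTRL DMSO libraries. It fell with OT in both genotypes and further in knockout cells, an interaction of -0.79 (adjusted p = 4.6e-05).

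THBS1, the matrix glycoprotein thrombospondin 1, had 35.1, 35.9 and 33.9 FPKM in YAP1 KO OT and 133, 131 and 131 FPKM in YAP1 KO DMSO libraries, against 143, 128 and 125 FPKM in CTRL OT and 163, 163 and 163 FPKM in CTRL DMSO libraries. The OT response was -1.88 in YAP1 KO and -0.30 in CTRL cells, an interaction of -1.58 (SE 0.069, adjusted p = 9.5e-08, and -1.52 without CTRL OT library 1). Of 19 mesenchymal genes 7 were called lower, and of 18 TGF-beta pathway genes 7 were called lower and 2 higher, against 8.18% lower and 10.5% higher over all genes, with medians of -0.099 and -0.11. With CTRL OT library 1 left out, 8 mesenchymal genes were lower, and 6 TGF-beta genes were lower and 2 higher. THBS1 among the mesenchymal genes and TGFB2 in the TGF-beta pathway were among the members at least 2-fold lower.

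The transcription factor SNAI2 (Slug), which represses epithelial genes, had 7.12, 7.81 and 7.41 FPKM in YAP1 KO OT and 13.7, 15.5 and 12 FPKM in YAP1 KO DMSO libraries, against 12.6, 13.2 and 13.4 FPKM in CTRL OT and 13.4, 14.8 and 14.6 FPKM in CTRL DMSO libraries. YAP1 KO OT libraries lay below all others, and the YAP1 KO DMSO libraries overlapped both control groups. Its interaction was -0.68 (SE 0.11, adjusted p = 0.001, and -0.70 without CTRL OT library 1). CDH2 (N-cadherin) was lower with -0.81 (adjusted p = 1.8e-05), while ZEB1, ZEB2 and TWIST1 did not pass the level filter. Fibroblast collagen COL1A2 was at 2.67 to 3.05 FPKM in YAP1 KO OT, 0.224 to 0.254 in YAP1 KO DMSO, 14.8 to 16 in CTRL OT and 1.11 to 1.5 in CTRL DMSO libraries, with an interaction of -1.21. This was -0.38 with a pseudocount of 0.1 and -0.069 with 0.01, and called with neither. The summed fibroblast markers moved with it, at 7.32 to 7.77 FPKM in YAP1 KO OT, 2.52 to 2.96 in YAP1 KO DMSO, 21.0 to 22.1 in CTRL OT and 5.61 to 6.25 in CTRL DMSO libraries, with the defining markers COL3A1, DCN, LUM, PDGFRA, PDGFRB, FAP and POSTN at most 0.2815 FPKM in any library.

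Epithelial junction and keratin genes split, with 7 of 25 called higher and 6 lower, against 10.5% higher and 8.18% lower over all genes, and a median of 0.063. The counts were 8 higher and 6 lower without CTRL OT library 1. CLDN3, a tight junction claudin, was higher with 0.65 (adjusted p = 0.0043). The simple-epithelium keratin KRT18 had 78 to 84.2 FPKM in YAP1 KO OT and 709 to 715 in YAP1 KO DMSO libraries, against 175 to 186 in CTRL OT and 842 to 895 in CTRL DMSO libraries, with an interaction of -0.89 (adjusted p = 3.0e-06). KRT7, another simple-epithelium keratin, was lower with -0.63 (adjusted p = 2.3e-04). The keratins did not move together, since KRT19 was called higher with 0.35 (adjusted p = 0.023) and KRT8, at 0.12, was not called. KRT19 and KRT8 were picked after their values were seen.

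Several of the 10 lowest genes belong to none of the lists. KRT4, a keratin of stratified mucosa, had 0.757, 0.621 and 0.431 FPKM in YAP1 KO OT and 0.0994, 0.183 and 0.131 FPKM in YAP1 KO DMSO libraries, against 8.3, 8.2 and 9.33 FPKM in CTRL OT and 0.438, 0.184 and 0.415 FPKM in CTRL DMSO libraries. It appeared with OT in control cells and stayed under 1 FPKM in all knockout libraries, an interaction of -2.35 (SE 0.13, adjusted p = 5.6e-07, and -2.37 without CTRL OT library 1). KRT4 passed the level filter through the CTRL OT libraries alone, the group where it is high. CPA4, a secreted carboxypeptidase, had 1.32, 1.38 and 1.34 FPKM in YAP1 KO OT and 5.97, 5.73 and 6.02 FPKM in YAP1 KO DMSO libraries, against 12.2, 13.5 and 11.2 FPKM in CTRL OT and 8.02, 8.62 and 7.7 FPKM in CTRL DMSO libraries. Its groups did not overlap, and it fell with OT in knockout cells and rose in control cells (-1.56 and 0.54), an interaction of -2.1 (SE 0.091, adjusted p = 9.5e-08, and -2.1 without CTRL OT library 1). NTM (neurotrimin, a cell adhesion molecule) was at 0.983 to 1.12 FPKM in YAP1 KO OT, 0.0342 to 0.068 in YAP1 KO DMSO, 20.1 to 21.8 in CTRL OT and 1.9 to 2.26 in CTRL DMSO libraries. Its interaction of -1.88 turned to 0.78, and was not called, with a pseudocount of 0.01. BEX1, an adaptor protein first described in brain, was lower with -1.83 (adjusted p = 4.4e-05) and was higher in knockout than control cells under DMSO (0.99) and lower under OT (-0.85). The rows MINOS1-NBL1 (-2.4) and TGIF2-C20orf24 (-1.85), which were lower, and NBL1 (1.71), which was higher, are read-through transcripts or overlap one, their reads cannot be divided with certainty, and their values are uncertain.

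Among the highest interactions, NUPR1, HMOX1, CALML5 and CLEC7A rose with OT in both genotypes and AQP3 did so in YAP1 KO cells alone. NUPR1, a stress-induced chromatin protein, had 708, 731 and 713 FPKM in YAP1 KO OT and 6.44, 4.78 and 5.15 FPKM in YAP1 KO DMSO libraries, against 475, 613 and 623 FPKM in CTRL OT and 23.4, 25.5 and 21 FPKM in CTRL DMSO libraries. The knockout libraries started lower in DMSO (-1.92 against control) and ended higher in OT (0.34), so the response was 6.81 in YAP1 KO and 4.55 in CTRL cells and the interaction 2.26 (SE 0.16, adjusted p = 2.9e-06, and 2.13 without CTRL OT library 1). HMOX1, heme oxygenase 1, had 77.1, 79.3 and 80.9 FPKM in YAP1 KO OT and 4.11, 4.35 and 4.45 FPKM in YAP1 KO DMSO libraries, against 29, 30.7 and 32.4 FPKM in CTRL OT and 5.18, 6.52 and 6.43 FPKM in CTRL DMSO libraries. YAP1 KO OT libraries stood above all others, and the interaction was 1.74 (SE 0.1, adjusted p = 6.0e-07, and 1.7 without CTRL OT library 1). AQP3, a channel for water and glycerol, had 9.54, 9.48 and 8.77 FPKM in YAP1 KO OT and 4.14, 3.62 and 3.57 FPKM in YAP1 KO DMSO libraries, against 3.08, 3.21 and 2.98 FPKM in CTRL OT and 6.82, 5.85 and 5.92 FPKM in CTRL DMSO libraries. It rose with OT in knockout cells and fell in control cells, with no overlap between the 4 groups and an interaction of 1.92 (SE 0.096, adjusted p = 1.9e-07, and 1.92 without CTRL OT library 1).

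CALML5, a calcium-binding protein of differentiating keratinocytes, had 4.31, 5.66 and 5.75 FPKM in YAP1 KO OT and 0.072, 0.0725 and 0.228 FPKM in YAP1 KO DMSO libraries, against 0.487, 0.831 and 0.274 FPKM in CTRL OT and 0, 0.266 and 0 FPKM in CTRL DMSO libraries. CLEC7A (dectin-1) had 7.78, 5.13 and 6.83 FPKM in YAP1 KO OT and 0.0449, 0.158 and 0.0709 FPKM in YAP1 KO DMSO libraries, against 0.796, 0.725 and 1.04 FPKM in CTRL OT and 0.0565, 0 and 0.0278 FPKM in CTRL DMSO libraries. For both, only the YAP1 KO OT libraries exceeded 1.04 FPKM, and the interactions were 1.98 and 1.93. Without those libraries, where they are high, neither gene would have passed the level filter. With a pseudocount of 0.01 in place of 1 they were 1.45 (adjusted p = 0.58) and 1.3 (adjusted p = 0.37), and neither was called. PDE8B, a cAMP phosphodiesterase, had 8.39 to 9.24 FPKM in YAP1 KO OT and 0.156 to 0.211 in YAP1 KO DMSO libraries, against 1.59 to 2.03 in CTRL OT and 0.0459 to 0.0777 in CTRL DMSO libraries. Its interaction was 1.65 (adjusted p = 7.9e-07), and that of VAV3, an exchange factor for small GTPases, 1.56 (adjusted p = 1.6e-05). These were 0.95 for PDE8B (adjusted p = 0.066) and 1.2 for VAV3 (adjusted p = 0.12) with a pseudocount of 0.01, and neither was called. SPINK1, a trypsin inhibitor, had 186, 213 and 190.5 FPKM in YAP1 KO OT and 5.56, 2.28 and 3.91 FPKM in YAP1 KO DMSO libraries, against 157, 205 and 209 FPKM in CTRL OT and 15.3, 13.5 and 16.3 FPKM in CTRL DMSO libraries. The 2 OT groups overlapped and the DMSO groups did not, and its interaction of 1.81 (SE 0.28, adjusted p = 8.8e-04, and 1.68 without CTRL OT library 1) came with a knockout difference under DMSO (-1.76) and 0.055 under OT. MSMB, a secreted protein of mucosal glands, was called higher with 1.62, and this turned to -1.77 with a pseudocount of 0.01, where control DMSO libraries list it at 0 to 0.333 FPKM.

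**Figure D4:**
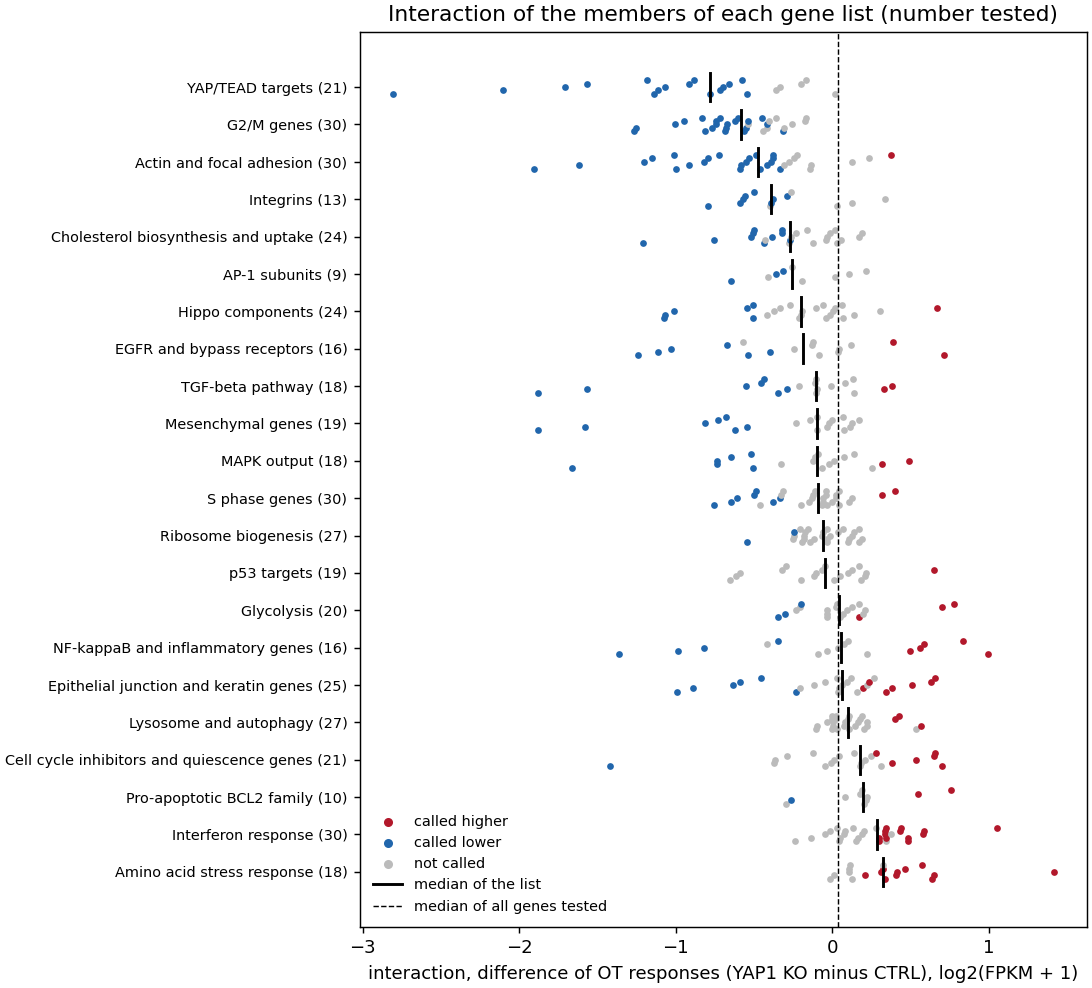
Interaction (difference of the OT responses, YAP1 KO less CTRL, on log2(FPKM + 1)) of the members of 22 gene lists, ordered by median, with the number tested after each name. Points are genes, coloured by call; black bars are list medians and the dashed line is the median of all genes tested, 0.036. YAP/TEAD targets have the lowest median and amino acid stress genes the highest.

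Of 18 targets of the amino acid (integrated) stress response, OT raised 14 in YAP1 KO cells and 13 in CTRL cells, against 46.4% and 45% of all genes. CHAC1, a glutathione-degrading enzyme induced by ATF4, had 41.8, 44.5 and 37.1 FPKM in YAP1 KO OT and 1.03, 1.33 and 1.83 FPKM in YAP1 KO DMSO libraries, against 23.2, 24.4 and 20.9 FPKM in CTRL OT and 3.71, 2.5 and 1.81 FPKM in CTRL DMSO libraries. The YAP1 KO OT libraries lay above the rest, and the DMSO groups overlapped. The interaction was 1.41 (SE 0.23, adjusted p = 0.0014, and 1.43 without CTRL OT library 1). DDIT4 (REDD1), an inhibitor of mTORC1, and DDIT3 (CHOP), a stress transcription factor, were higher with 0.64 (adjusted p = 3.5e-05) and 0.65 (adjusted p = 0.0027). In the interaction 11 of the 18 were called higher, against 10.5% of all genes, with a lowest value of -0.013 and a median of 0.33. The list's median OT response was 1.12 in YAP1 KO and 0.82 in CTRL cells, and its median knockout difference was 0.23 under OT and -0.18 under DMSO. Without CTRL OT library 1, 12 members were called higher, and after median-of-ratios scaling 9.

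OT raised 27 of 30 interferon-induced genes in YAP1 KO cells and 26 in CTRL cells, against 46.4% and 45% of all genes. In the interaction 13 were called higher, against 10.5% of all genes, with a median of 0.29, and the median knockout difference was 0.072 under OT and -0.14 under DMSO. OAS1, a sensor of double-stranded RNA, had 18.2, 18.2 and 18.2 FPKM in YAP1 KO OT and 2.19, 1.8 and 1.95 FPKM in YAP1 KO DMSO libraries, against 10.8, 11.7 and 10.9 FPKM in CTRL OT and 2.93, 3.32 and 2.48 FPKM in CTRL DMSO libraries. Its groups did not overlap, knockout libraries were the lower ones in DMSO and the higher ones in OT, and the interaction was 1.05 (SE 0.11, adjusted p = 4.8e-05, and 1.03 without CTRL OT library 1). Without CTRL OT library 1, 13 interferon genes were called higher and 2 lower, and after median-of-ratios scaling 11 were called higher. NF-kappaB and inflammatory genes split, with 5 of 16 higher and 4 lower, against 10.5% and 8.18% of all genes, and 5 and 5 without CTRL OT library 1. In that list TNFSF10, the death ligand TRAIL, was called higher, with an interaction of 1.00 (adjusted p = 1.8e-05). It had 236 to 251 FPKM in YAP1 KO OT and 20.0 to 21.3 in YAP1 KO DMSO libraries, against 159.7 to 182 in CTRL OT and 26.5 to 31.3 in CTRL DMSO libraries. The chemokine CCL2 and the adhesion molecule ICAM1 were lower, with -1.36 and -0.98; ICAM1 had 6.46 to 6.84 FPKM in YAP1 KO OT, 3.36 to 3.6 in YAP1 KO DMSO, 19.7 to 23.5 in CTRL OT and 5.27 to 6.21 in CTRL DMSO libraries. The immune marker CD68, a lysosomal protein that epithelial cells can also express, was called higher with 0.38, and the 10 immune and endothelial markers summed to 114 to 118 FPKM in YAP1 KO OT, 22.2 to 24.4 in YAP1 KO DMSO, 90.4 to 91.8 in CTRL OT and 22.3 to 25.3 in CTRL DMSO libraries. The pan-leukocyte marker PTPRC was at most 0.0516 FPKM in any library.

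Among genes of mitochondrial apoptosis a few members were called in the interaction. BMF, a BH3-only protein that binds survival BCL2 proteins, had 159, 159 and 152 FPKM in YAP1 KO OT and 8.0, 8.07 and 8.78 FPKM in YAP1 KO DMSO libraries, against 112, 97.7 and 92.8 FPKM in CTRL OT and 8.89, 8.96 and 9.52 FPKM in CTRL DMSO libraries. YAP1 KO OT libraries lay above all others, and under DMSO the knockout difference was -0.12. The response was 4.09 in YAP1 KO and 3.33 in CTRL cells, an interaction of 0.76 (SE 0.09, adjusted p = 1.3e-04, and 0.84 without CTRL OT library 1). BCL2L11, which encodes the BH3-only protein BIM, had 8.63, 8.27 and 8.79 FPKM in YAP1 KO OT and 1.66, 2.08 and 1.78 FPKM in YAP1 KO DMSO libraries, against 6.84, 5.38 and 5.22 FPKM in CTRL OT and 1.82, 2.15 and 1.88 FPKM in CTRL DMSO libraries. The OT groups did not overlap, the DMSO groups did, and the interaction was 0.55 (SE 0.13, adjusted p = 0.01, and 0.66 without CTRL OT library 1).

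BBC3, which encodes PUMA, had 45.9, 45.4 and 52.7 FPKM in YAP1 KO OT and 6.55, 5.74 and 6.05 FPKM in YAP1 KO DMSO libraries, against 28, 40.9 and 45.1 FPKM in CTRL OT and 4.82, 5.07 and 6.62 FPKM in CTRL DMSO libraries. It rose with OT in both genotypes, and its interaction of 0.21 was not called, with a 95% interval of -0.25 to 0.68; it was 0.014 without CTRL OT library 1. BID was lower with -0.26. Of 10 pro-apoptotic family members tested 2 were called higher and 1 lower, against 10.5% higher and 8.18% lower over all genes, with a median of 0.20. Without CTRL OT library 1 the counts were 3 higher and 2 lower. The list is small, and nothing is read from its counts. Of the 4 survival members tested only BCL2L1, which encodes BCL-XL, was called. It had 25.4, 29.5 and 28.9 FPKM in YAP1 KO OT and 79.2, 78.9 and 82.5 FPKM in YAP1 KO DMSO libraries, against 42.8, 43.4 and 52.6 FPKM in CTRL OT and 80.6, 80.9 and 78.5 FPKM in CTRL DMSO libraries. The OT response was -1.49 in YAP1 KO and -0.78 in CTRL cells, an interaction of -0.71 (SE 0.11, adjusted p = 6.9e-04, and -0.76 without CTRL OT library 1). MCL1 was at 0.037 and BCL2L2 at 0.10, neither called, and BCL2 did not pass the level filter.

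OT lowered all 18 genes of MAPK output tested in both genotypes, against 36.5% of all genes in YAP1 KO and 36.6% in CTRL cells. DUSP6, the ERK phosphatase, had 0.139, 0.104 and 0.105 FPKM in YAP1 KO OT and 47.2, 47.8 and 42.6 FPKM in YAP1 KO DMSO libraries, against 0.86, 0.222 and 0.0575 FPKM in CTRL OT and 52.7, 55.2 and 55.1 FPKM in CTRL DMSO libraries. Both OT groups were under 1 FPKM, so a difference between the responses was not measurable at this level, and the interaction was -0.023 (adjusted p = 0.96). It was 0.21 without CTRL OT library 1 and again not called. CCND1 (cyclin D1) had 4.33, 4.45 and 4.41 FPKM in YAP1 KO OT and 117, 114 and 116 FPKM in YAP1 KO DMSO libraries, against 9.84, 7.42 and 6.68 FPKM in CTRL OT and 116, 111 and 115 FPKM in CTRL DMSO libraries. OT groups did not overlap, and the interaction was -0.74 (adjusted p = 0.0023), or -0.59 without CTRL OT library 1, the highest of its group. EPHA2, an ephrin receptor induced by ERK, had 0.651, 0.717 and 0.667 FPKM in YAP1 KO OT and 38.1, 35.8 and 38.9 FPKM in YAP1 KO DMSO libraries, against 4.74, 4.32 and 4.83 FPKM in CTRL OT and 40.6, 41 and 38 FPKM in CTRL DMSO libraries. Its OT response was -4.52 in YAP1 KO and -2.86 in CTRL cells, an interaction of -1.66 (SE 0.075, adjusted p = 1.1e-07, and -1.65 without CTRL OT library 1). Of 18 MAPK output genes 6 were called lower and 2 higher, against 8.18% lower and 10.5% higher over all genes, so that the higher share was near that of all genes, with a median of -0.098 and median OT responses of -3.13 in YAP1 KO and -2.70 in CTRL cells. That median was -0.0017 without CTRL OT library 1, with the same counts.

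Receptor kinases and their ligands gave both called and uncalled interactions. Of 16 tested, 6 were called lower and 2 higher, with a median of -0.19. Over all genes 8.18% were called lower and 10.5% higher, so the higher share was near that of all genes. The 2 called higher were ERBB3 at 0.39 (adjusted p = 0.0025) and the ligand BTC at 0.72 (adjusted p = 0.013), both picked after their values were seen. MET, the receptor of hepatocyte growth factor, had 2.87, 2.6 and 2.68 FPKM in YAP1 KO OT and 42.5, 42.2 and 39.8 FPKM in YAP1 KO DMSO libraries, against 9.39, 8.62 and 9.02 FPKM in CTRL OT and 48.5, 43.9 and 49.9 FPKM in CTRL DMSO libraries. It fell with OT in both genotypes and further in knockout cells, with no overlap of the OT groups and an interaction of -1.24 (SE 0.079, adjusted p = 1.3e-06, and -1.22 without CTRL OT library 1). NRG1, a ligand of ERBB3 and ERBB4, was lower with -1.03 (adjusted p = 1.1e-04). EGFR had 8.77, 8.66 and 8.37 FPKM in YAP1 KO OT and 15.3, 14 and 15.1 FPKM in YAP1 KO DMSO libraries, against 18.4, 10.2 and 9.46 FPKM in CTRL OT and 14, 13 and 13.7 FPKM in CTRL DMSO libraries. Library 1 of CTRL OT lay apart, and the interaction of -0.57 (adjusted p = 0.13) was not called; without that library it was -0.29 (adjusted p = 0.014) and passed the threshold. FOSL1 and JUN, subunits of AP-1, were lower with -0.65 and -0.31. Of 9 AP-1 subunits tested 3 were called lower, against 8.18% of all genes, with a median of -0.25, and 4 without CTRL OT library 1.

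All 30 S phase and all 30 G2/M genes tested fell with OT in both genotypes, and 21 of the G2/M genes fell further in knockout cells. Over all genes OT lowered 36.5% in YAP1 KO and 36.6% in CTRL cells. KIF23, a kinesin of the midzone, had 1.45, 1.38 and 1.2 FPKM in YAP1 KO OT and 70.8, 70.5 and 68.9 FPKM in YAP1 KO DMSO libraries, against 3.54, 3.16 and 3.31 FPKM in CTRL OT and 53.7, 51.2 and 56.2 FPKM in CTRL DMSO libraries. The knockout libraries were the higher ones in DMSO (0.38) and the lower ones in OT (-0.89), with no overlap, and the interaction was -1.27 (SE 0.077, adjusted p = 8.9e-07, and -1.24 without CTRL OT library 1). UBE2C, an E2 enzyme of the anaphase-promoting complex, was lower with -1.25 (adjusted p = 1.1e-05). The proliferation marker MKI67 had 0.706, 0.57 and 0.716 FPKM in YAP1 KO OT and 20.6, 19.1 and 20.9 FPKM in YAP1 KO DMSO libraries, against 1.46, 1.22 and 1.03 FPKM in CTRL OT and 16.7, 14.2 and 17.4 FPKM in CTRL DMSO libraries. Its OT groups did not overlap, and its interaction was -0.74 (SE 0.12, adjusted p = 0.0014, and -0.67 without CTRL OT library 1). Of 30 G2/M genes 21 were called lower, against 8.18% of all genes, the median was -0.58 and the highest member was at -0.17. The median OT response was -4.26 in YAP1 KO and -3.77 in CTRL cells, and the median knockout difference was -0.34 under OT and 0.25 under DMSO. Without CTRL OT library 1, 21 were called lower.

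Of 30 S phase genes 7 were called lower and 2 higher, against 8.18% lower and 10.5% higher over all genes. The counts were 8 and 2 without CTRL OT library 1. The list had a median of -0.089 and median OT responses of -2.88 in YAP1 KO and -2.70 in CTRL cells. TYMS (thymidylate synthase) and TK1 (thymidine kinase) were lower with -0.76 (adjusted p = 5.4e-04) and -0.61 (adjusted p = 2.6e-04). RRM2, the small subunit of ribonucleotide reductase, had -0.65 and was not called under 11 of 24 other settings. The CDK inhibitor CDKN1A (p21) had 78.9, 88.3 and 121 FPKM in YAP1 KO OT and 53.9, 56.9 and 62.1 FPKM in YAP1 KO DMSO libraries, against 64.5, 73.8 and 117 FPKM in CTRL OT and 45, 50.1 and 50.2 FPKM in CTRL DMSO libraries. The OT groups overlapped and the interaction was -0.048 (adjusted p = 0.93), with a 95% interval of -0.64 to 0.55. Among 21 cell cycle inhibitors and quiescence genes 6 were called higher and 1 lower, against 10.5% and 8.18% of all genes, with a median of 0.18, and 7 and 1 without CTRL OT library 1. KLF4, a growth-restraining transcription factor, and CCNG2 (cyclin G2) were higher with 0.70 (adjusted p = 2.4e-05) and 0.66 (adjusted p = 3.2e-04). GAS6, a growth-arrest gene that encodes the ligand of AXL, was the lower one. It had 34.5, 37.6 and 35.5 FPKM in YAP1 KO OT and 66.2, 67.7 and 66.6 FPKM in YAP1 KO DMSO libraries, against 113, 116 and 119 FPKM in CTRL OT and 79.5, 81.4 and 77.8 FPKM in CTRL DMSO libraries. The response was -0.88 in YAP1 KO and 0.54 in CTRL cells, an interaction of -1.42 (SE 0.057, adjusted p = 6.9e-08, and -1.43 without CTRL OT library 1), so the ligand and its receptor AXL were both lower in YAP1 KO OT than in any other group.

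OT lowered 22 of 24 genes of cholesterol synthesis and uptake in each genotype, against 36.5% of all genes in YAP1 KO and 36.6% in CTRL cells. SQLE, the enzyme squalene epoxidase of sterol synthesis, had 4.28, 5.26 and 4.15 FPKM in YAP1 KO OT and 23.4, 24.9 and 23.5 FPKM in YAP1 KO DMSO libraries, against 6.47, 7.49 and 7.01 FPKM in CTRL OT and 23.1, 23.9 and 25.3 FPKM in CTRL DMSO libraries. The OT groups did not overlap, the DMSO groups did, and the interaction was -0.52 (SE 0.11, adjusted p = 0.0051, and -0.57 without CTRL OT library 1). In the interaction 10 of the 24 were called lower, against 8.18% of all genes, with a median of -0.27 and a highest value of 0.19, and 11 were called lower without CTRL OT library 1. Called higher and lower were 3 and 3 of 20 glycolysis genes, 3 of 27 lysosome and autophagy genes (higher), 2 of 27 ribosome biogenesis genes (lower) and 1 of 19 p53 targets (higher), with medians of 0.041, 0.098, -0.059 and -0.048. The shares were near or below those of all genes, 10.5% higher and 8.18% lower, apart from glycolysis. Leaving out CTRL OT library 1 gave 5 and 4 of the glycolysis genes, 5 and 1 of the lysosome genes, 4 lower ribosome genes, and 1 and 3 of the p53 targets.

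PC9, the other EGFR-mutant line of the series, gave an interaction that was measured in libraries of its own. Across the 11845 genes tested in both lines, the HCC4006 and PC9 interactions correlated at r = 0.216, given as a description. Of these genes PC9 had 1249 called higher (10.5%) and 1319 lower (11.1%). The difference between the lines, HCC4006 minus PC9, was called for 836 genes in the higher direction (7.06%) and 758 in the lower (6.4%), and for 524 and 754 after scaling to the same sum of FPKM. Of 21 YAP/TEAD targets, 10 had a lower and 1 a higher interaction in HCC4006 than in PC9, and the list's median was -0.78 in HCC4006 and -0.48 in PC9. For CTGF the interaction was -2.8 in HCC4006 and -1.46 in PC9, a difference of -1.35 (adjusted p = 1.3e-05).

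Cytoskeletal genes were called lower in HCC4006 than in PC9 for 12 of 27 members tested in both and higher for 1, with medians of -0.48 and -0.073. Over all genes tested in both, the difference between the lines was called higher for 7.06% and lower for 6.4%. The PC9 interaction was called lower for 11.1% of them. MYL9 was at -1.62 in HCC4006 and -0.074 in PC9, and MET at -1.24 and -0.077. S phase genes were called lower for 7 of 30 in HCC4006 and for 29 of 30 in PC9, with medians of -0.089 in HCC4006 and -0.69 in PC9, and 25 of 30 had a higher interaction in HCC4006. G2/M genes had a median of -0.58 in HCC4006 and -0.32 in PC9, and 10 of 30 were lower in HCC4006. MKI67 was at -0.74 in HCC4006 and -0.0056 in PC9. BMF was called higher in both, at 0.76 in HCC4006 and 1.97 in PC9, a difference of -1.21 (adjusted p = 5.1e-06), and BCL2L11 at 0.55 and 0.71 did not differ past the threshold. Amino acid stress genes had medians of 0.33 in HCC4006 and -0.033 in PC9, with 8 of 18 higher and 2 lower in HCC4006; CHAC1 was at 1.41 and -0.11. Remaining YAP1 transcript also differed, at 5.97 to 6.34 FPKM in YAP1 KO OT and 3.9 to 4.59 in YAP1 KO DMSO libraries of HCC4006, and 10.1 to 11.6 and 11.6 to 12.4 FPKM in those of PC9. Its part in the difference was not tested.

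**Figure D5:**
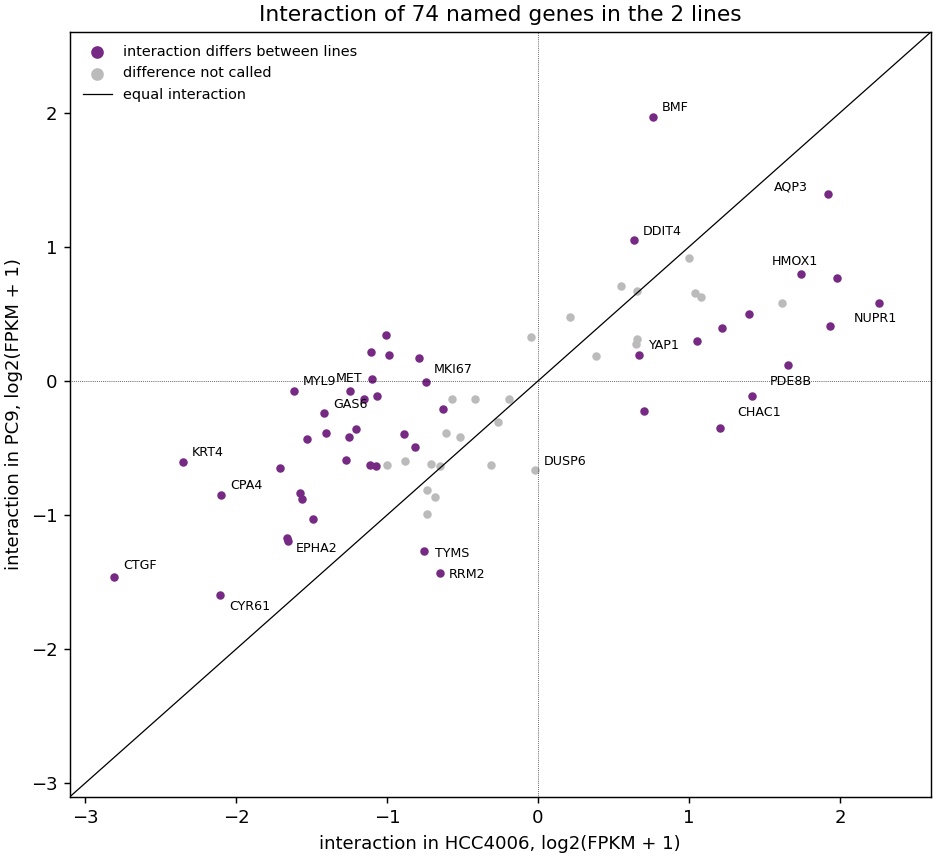
Interaction in HCC4006 on the horizontal axis and in PC9 on the vertical axis, both log2(FPKM + 1), for the named genes tested in both lines, with the line of equal interaction. Purple points are genes whose interaction differed between lines at an adjusted p under 0.05; BMF lies above the line, and CTGF, MYL9, MET and KRT4 lie left of it.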

How the data were processed

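Total RNA of 24 libraries from HCC4006 and PC9 cells was sequenced after a stranded mRNA preparation, per the labels' protocols. The authors deposited FPKM per gene; STAR 2.5.1b, Cufflinks 2.2.1, DESeq2 1.10.1 and the build hg19 are named in the submitters' processing notes, with no role stated. FPKM are not counts, so absolute depth is unknown, and relative depth was read from the steps of low values. From the deposited FPKM, log2(FPKM + 1) was fitted with limma 3.58.1 in R 4.3.3 over the 12 HCC4006 libraries, with 1 mean per group and the interaction as a contrast, for rows at 1 FPKM or more in at least 3 libraries. The difference between lines came from genes tested in both. P-values were Benjamini-Hochberg adjusted over all genes tested, with a threshold of 0.05, and intervals are 95% and unadjusted. A fold change on this scale understates the change of low genes, and a difference between 2 such changes can come out larger or smaller.

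The members and the 26 gene lists were chosen with earlier results of these data known. Genes were named by a rule: YAP1, the 10 highest and 10 lowest interactions called, up to 3 called members per list with the largest difference, and 15 genes whatever their result; any other is said to have been picked after its values were seen, as were the single members that a small count points to, such as LIMA1, FOXF2, MCL1 and BCL2L2. Rows of short RNAs and symbols altered to dates were not named, and some genes that the rule names are not reported here. The fit was tested on simulated data. Replicate numbers were not used to pair the samples in the main fit, and they showed no pairing that held across all 4 groups. Promoter windows came from RefSeq on GRCh38.p14 and were matched by symbol. Alternatives were other pseudocounts, level filters, scalings, library weights, a replicate block, all 24 libraries in 1 fit, leaving out each library and, chosen after seeing the data, a replicate block in CTRL libraries alone.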

Additional observations from a re-analysis of the deposited data

Results flagged for a closer look

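Genes picked after their values were seen are left out here. Of the other genes named in the text, 61 were tested in both lines. The interaction of 37 of these 61 differed between HCC4006 and PC9 at an adjusted p under 0.05 in limma. Over all genes the shares were 7.06% in the higher and 6.4% in the lower direction, but most of the 61 were named for large interactions in HCC4006, so nothing is read from that comparison. Values are the HCC4006 interaction minus the PC9 interaction on the log2(FPKM + 1) scale. Among targets and regulators of YAP the differences were CTGF at -1.35, F3 at -1.06, AMOTL2 at -0.96, TGFB2 at -0.68, CYR61 at -0.51, AXL at -0.49, WWC1 at -0.44 and YAP1 at 0.48. Cytoskeletal, adhesion and matrix genes had MYL9 at -1.54, ITGA5 at -0.96, ACTN1 at -0.84, THBS1 at -0.74 and CDH2 at -0.32. Keratins and the carboxypeptidase gene had KRT4 at -1.75, CPA4 at -1.25, KRT18 at -0.49 and KRT7 at -0.42. Genes of stress, inflammation and growth arrest had NUPR1 at 1.67, CHAC1 at 1.53, HMOX1 at 0.94, OAS1 at 0.76, KLF4 at 0.92, DDIT4 at -0.41, GAS6 at -1.18 and ICAM1 at -1.18. Among the other genes with high interactions in HCC4006, the values were PDE8B at 1.54, CLEC7A at 1.53, CALML5 at 1.21 and AQP3 at 0.53. BMF, called higher in both lines, had -1.21. Receptor genes had MET at -1.17 and EPHA2 at -0.49. Mitotic genes had UBE2C at -0.83, MKI67 at -0.73 and KIF23 at -0.68, and the S phase genes had the other sign, with RRM2 at 0.78 and TYMS at 0.52.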

How the results depend on the processing

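The counts of genes at least 2-fold higher and lower were 148 and 198 with a pseudocount of 0.1 and 152 and 218 with 0.01, against 51 and 97 with 1. Library weights gave 2379 genes higher and 1898 lower in the interaction, and 1278 and 1269 between the lines; scaling to the same sum of FPKM gave 524 genes higher and 754 lower between the lines, against 836 and 758. With a pseudocount of 0.01, NTM turned to 0.78, MSMB to -1.77, LYZ to -0.11 and NAPSA to 0.15, and CALML5 at 1.45, CLEC7A at 1.3, PDE8B at 0.95, VAV3 at 1.2, VGLL1 at -1.95 and COL1A2 at -0.069 were no longer called; 6 named genes lost the call with 0.1. The cause of these shifts was not tested. Leaving out 1 library gave 1025 to 1610 genes higher and 880 to 1412 lower, with the largest counts without CTRL OT library 1; 16 to 17 YAP/TEAD targets and 19 to 23 G2/M genes were called lower. With the replicate block 1304 genes were higher and 1044 lower. Libraries sharing a number correlated in their deviations at -0.15 to 0.236 (18 pairs, median 0.0485), and others at -0.221 to 0.219 (36 pairs, median -0.0287). Of 110 named genes, 109 kept direction and side of the threshold under the block. Same-numbered OT and DMSO libraries correlated at 0.134 to 0.146 in CTRL and at -0.15 to -0.0927 in YAP1 KO cells. A replicate block in CTRL libraries alone, chosen after seeing the data, gave 1610 genes higher and 1206 lower; EGFR (-0.57) and TEAD1 (-0.42) passed the threshold. Unknown depth limits genes under 1 FPKM most.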

Other observations

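The genes here were picked after their values were seen. Secreted and matrix genes outside the lists were among those at least 2-fold lower. DKK1, a secreted WNT antagonist, had an interaction of -1.65 (adjusted p = 1.1e-07), GREM1, a BMP antagonist, -1.53 (adjusted p = 4.1e-07), and the cytokine IL11 -1.4 (adjusted p = 3.0e-07). LOX, the collagen cross-linking enzyme, was at -1.1 (adjusted p = 1.2e-05), FBN1 (fibrillin 1) at -1.19 (adjusted p = 5.1e-05), COL12A1 at -1.11 (adjusted p = 5.6e-05) and TFPI2, a protease inhibitor of the matrix, at -1.49 (adjusted p = 1.8e-05).

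Among genes at least 2-fold higher were MMP7, a matrix protease of glandular epithelium, at 1.21 (adjusted p = 3.5e-05), GPNMB, a glycoprotein of lysosomes, at 1.4 (adjusted p = 2.8e-05), the transcription factor SOX2 at 1.1 (adjusted p = 2.1e-05) and CA9, carbonic anhydrase 9, at 1.14 (adjusted p = 2.9e-05). Rows of histone H2A genes were higher too, with HIST2H2AC at 1.22 (adjusted p = 0.0023), HIST2H2AA3 at 1.08 (adjusted p = 7.4e-06) and HIST1H2AG at 1.04 (adjusted p = 0.014). Histone H2A genes include near-identical copies, and their values are uncertain where the counting could split reads between copies. The libraries came from an mRNA preparation, and how fully it captured histone transcripts was not tested.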
